A study of Mus musculus with 12 samples.

Results

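The IKK complex and the kinases and adaptors that feed it were followed as 10 genes. The 10 were picked by symbol from the 55335 genes quantified in each library. No measured value entered that rule, but earlier results of these data were known when these 10 genes were chosen. They are the IKK subunits Chuk, Ikbkb and Ikbkg, the TAK1 kinase gene Map3k7 and its adaptor gene Tab2, the MAP3 kinases Map3k8 and Map3k14, the IKK-related kinase Tbk1, and Malt1 and Bcl10 of the CARD-BCL10-MALT1 complex. All 10 were among the 14008 genes that passed a filter on low counts. RNA was sequenced from BMDCs in 4 groups of 3 libraries, described as biological triplicates. BMDCs are dendritic cells that differentiate from bone marrow of mice in the presence of GM-CSF, here over 6 days, and they were selected with CD11c microbeads. WT BMDCs came from CreER mice with intact Ctcf, and CTCF-deficient BMDCs (KO) from CreER;CTCFfl/fl mice. Both strains, on a C57BL/6 background and 8 to 12 weeks old, carried the tamoxifen-inducible Cre in the Rosa26 locus, which is active in many cell types, and 4-hydroxytamoxifen (4-OHT) was given on the first day of culture to delete Ctcf. Whether WT cultures also received 4-OHT is not clear from the sources used here. If they did not, its effects and those of CTCF loss cannot be told apart. WTL and KOL were the same 2 kinds of BMDCs after 3 h with 100 ng/ml LPS, the bacterial cell wall component sensed by TLR4.

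IKK is the point at which many immune receptors converge on NF-kB. IKKα (Chuk) and IKKβ (Ikbkb) are its kinases and NEMO (Ikbkg) is the regulatory subunit that binds ubiquitin chains, and IKKβ phosphorylates IκB proteins so that they are degraded and NF-kB is released. Downstream of TLR4, TAK1 (Map3k7), brought to ubiquitin chains by TAB2, activates IKKβ, while NIK (Map3k14) activates IKKα in the non-canonical pathway, TPL2 (Map3k8) carries the IKK signal to ERK, TBK1 phosphorylates IRF3, and BCL10 and MALT1 link CARD scaffold proteins of C-type lectin and antigen receptors to IKK. Much of this activation takes place on proteins already present, and the values here are RNA levels only.

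Ctcf, the targeted gene, was read at 975 to 1051 normalized counts in WT and 516 to 569.7 in KO, and at 745 to 886 in WTL and 526 to 563 in KOL. No library overlapped between genotypes, and KO kept 54.7% of the WT level. This share is gene-level RNA and does not measure CTCF protein. The paper reports efficient depletion of CTCF mRNA and protein, with its occupancy gone or strongly lowered at its binding sites. Normalized counts are counts divided by the library's effective size and put on the mean size of the 12 libraries. The libraries held 12769773 to 16586334 expected counts. WTL replicate 1 and KOL replicate 2 stood apart from the other 2 libraries of their groups, and values without both are given where they change a call. Ribosomal RNA took 5.165% of WTL replicate 2 and at most 1.185% of the others. Each of 7 dendritic cell marker genes (Itgax, H2-Ab1, Cd74, Flt3, Zbtb46, Ccr7 and Ciita) averaged at least 100 normalized counts in WT, and their summed level was 83543 to 85245 in KO and 88054 to 92489 in WT. Within that list the mean of Itgax was 22023 in KO and 12348 in WT, whereas Flt3 was at 24 to 43.1 in KO and 129 to 137 in WT. The summed level of 7 macrophage markers was 26391 to 27418 in KO and 18504 to 19957 in WT. Csf1r carried that difference, with a mean of 23576 in KO and 14233 in WT, while the means of Adgre1 (981 and 1720.5), Mertk (237 and 531), Cd14 (1620 and 2541) and Fcgr1 (24.7 and 94.1) were lower in KO. The summed level of 8 neutrophil markers was 585 to 668 in KO and 1164 to 1283 in WT. Ly6g was at no more than 3 counts in every KO and WT library, and Elane and Camp in every KO library. After LPS the macrophage sum overlapped between genotypes (16946 to 21410 in KOL, 18251 to 20893 in WTL), and the neutrophil sum was 1194 to 1407 in KOL and 1724 to 2056 in WTL. The dendritic cell sum overlapped too (150630 to 205930 in KOL, 123870 to 169700 in WTL). Without LPS, all these marker sums differed between KO and WT, and after LPS only the neutrophil sum did so without overlap. Their part in the genotype differences given here, with or without LPS, was not tested. In bulk RNA, fewer cells of a type and less RNA per cell cannot be told apart.

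Positions refer to mm10 and the GENCODE M21 annotation. Map3k14 (ENSMUSG00000020941.7) lies on the minus strand of chr11:103219762-103267472, Ikbkb (ENSMUSG00000031537.15) on the minus strand of chr8:22659212-22706589, Chuk (ENSMUSG00000025199.16) on the minus strand of chr19:44073335-44107480 and Ikbkg (ENSMUSG00000004221.16) on the plus strand of chrX:74393290-74453854. Tbk1 (ENSMUSG00000020115.3) and Tab2 (ENSMUSG00000015755.16) share chromosome 10 (chr10:121546455-121586787 and chr10:7905653-7956230, both minus), and Map3k7 (ENSMUSG00000028284.13) is at chr4:31964097-32023467 and Bcl10 (ENSMUSG00000028191.11) at chr3:145922804-145934356 (both plus). The identifiers of Map3k8 and Malt1 are ENSMUSG00000024235.11 and ENSMUSG00000032688.9. Ikbkg overlaps G6pdx on the opposite strand, which was read at 2450 to 2697 normalized counts in WT, 3564 to 3779.5 in KO, 1645 to 1848 in WTL and 1700.1 to 2251 in KOL. Whether strand was used in counting is not stated, so Ikbkg values are uncertain to that extent. Genes overlapping Map3k14 (1700028N14Rik), Ikbkb (Gm15346) and Map3k7 (Gm11926 and Gm26254) had at most 2.59 normalized counts in any library.

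RefSeq promoters on GRCm38.p6 were at hand for 7 of the 10 genes. The 250 bases before the RefSeq start site are printed 5′ to 3′ on the strand of the gene for Map3k14 and Tbk1, which moved in opposite directions after LPS in WT, and for Map3k7 and Bcl10, whose windows hold a match to the NF-kB consensus. Capitals mark matches to that consensus or to GGGCGG, an Sp1-type GC box, or their reverse complements. The regions are chr11:103267402-103267651 (minus), chr10:121586795-121587044 (minus), chr4:31963857-31964106 (plus) and chr3:145924012-145924261 (plus). RefSeq and GENCODE starts differ. The Bcl10 window lies inside the gene at its GENCODE position, and the windows of Map3k14 and Map3k7 overlap theirs in part.
Map3k14: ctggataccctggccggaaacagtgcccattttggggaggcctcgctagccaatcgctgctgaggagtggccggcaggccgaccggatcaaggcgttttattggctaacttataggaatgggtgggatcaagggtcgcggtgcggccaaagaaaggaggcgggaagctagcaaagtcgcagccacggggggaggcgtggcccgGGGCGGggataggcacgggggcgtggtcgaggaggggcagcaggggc
Tbk1: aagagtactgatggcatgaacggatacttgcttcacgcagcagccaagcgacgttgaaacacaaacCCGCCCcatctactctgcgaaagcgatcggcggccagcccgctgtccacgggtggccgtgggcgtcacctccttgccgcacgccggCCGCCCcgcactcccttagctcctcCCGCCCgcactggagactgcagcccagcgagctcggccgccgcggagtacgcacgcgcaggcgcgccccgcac
Map3k7: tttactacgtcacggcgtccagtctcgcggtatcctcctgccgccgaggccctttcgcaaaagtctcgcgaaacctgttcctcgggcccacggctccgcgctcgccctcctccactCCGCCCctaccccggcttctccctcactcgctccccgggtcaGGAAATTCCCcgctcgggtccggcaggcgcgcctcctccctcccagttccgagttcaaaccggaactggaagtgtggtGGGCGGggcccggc
Bcl10: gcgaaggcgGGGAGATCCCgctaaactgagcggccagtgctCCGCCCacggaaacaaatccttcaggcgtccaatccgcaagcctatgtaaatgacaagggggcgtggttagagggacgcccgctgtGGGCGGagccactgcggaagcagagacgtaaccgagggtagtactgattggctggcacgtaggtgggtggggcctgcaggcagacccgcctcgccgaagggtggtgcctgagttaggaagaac
The Map3k14 window holds 1 GGGCGG match and the Tbk1 window 3, with no NF-kB consensus in either. Map3k7 and Bcl10 each hold 1 NF-kB match and 2 GGGCGG matches. No window of Chuk, Ikbkg or Tab2, which are not printed, holds the NF-kB consensus. The patterns TTCNNNGAA and TGANTCA were also searched. Chuk alone held the first, and Ikbkg alone held the second. Over 32817 promoter windows of the same length, 7.249% hold the NF-kB consensus and 32.72% hold GGGCGG on either strand. TTCNNNGAA lies in 7.015% of them and TGANTCA in 6.753%. Since Map3k7 and Bcl10 were printed for their match, they cannot be weighed against the NF-kB share. A match is a description of the letters and not of binding.

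Compared per transcript length as TPM, all 10 genes were well expressed in unstimulated WT BMDCs, at the 64.6th to the 89.8th percentile of tested genes. Malt1, a protease and scaffold, and Ikbkb were highest, at 84.3 ± 5.46 and 82.8 ± 3.43 TPM (SD, n = 3), and their WT ranges overlapped. Map3k7 was lowest at 20.9 ± 1.16 TPM, with Map3k8 next at 26.0 ± 1.38, and these neighbours did not overlap. Among the IKK subunits, the TPM of Ikbkb was above that of Ikbkg (47.6 ± 5.47) and Chuk (44.5 ± 2.54) in every WT library, and the latter 2 overlapped. TPM has the same sum in every library, and on this scale the median of all genes fell by 0.44 (log2) after LPS in WT and by 0.38 in KO, whereas with edgeR's TMM scaling it moved by -0.02 in both. Changes after LPS below are on the TMM scale, and those whose direction differs on TPM are named with it.

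**Figure D1:**
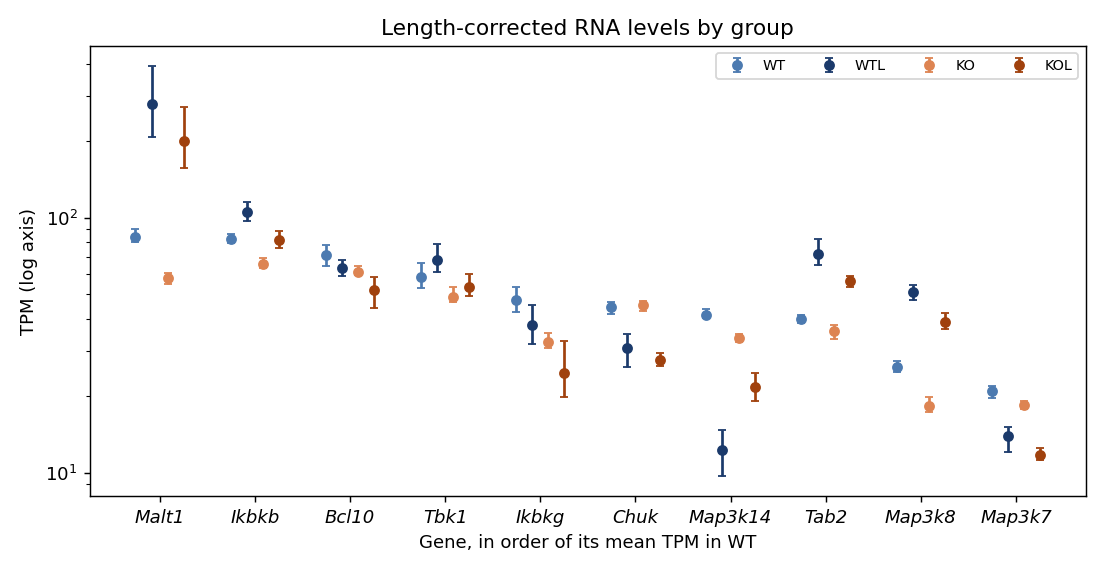
TPM of each gene (log axis) in the 4 groups, with genes in the order of their mean in WT. Points are means of 3 libraries and bars run from the lowest to the highest library. Malt1 has the highest level in WTL and KOL, and Map3k14 is at 12.3 TPM in WTL against 41.7 in WT.

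LPS moved 7 of the 10 genes in WT BMDCs and 7 in CTCF-deficient BMDCs. Malt1, Map3k8, Tab2, Ikbkb, Tbk1 and Bcl10 were upregulated in both genotypes. Map3k14 was downregulated in WT, and Map3k7 in KO. By the quasi-likelihood test of edgeR, with p-values adjusted over all genes (Benjamini-Hochberg), 60.2% of genes were called in WT (30.0% higher and 30.2% lower) and 67.5% in KO (33.6% higher and 33.9% lower). The share of the 10 genes called in either direction was thus near that of all genes, and the share called higher, 6 of 10, was above it. Groups with and without LPS did not overlap for 7 of the 10 in WT and 8 in KO, as for 65.1% and 71.2% of all genes. The median log2 fold change of the 10 was 0.58 in WT and 0.43 in KO, beside -0.02 over all genes in each. With the study's cutoff of 2-fold added, 3 rose and 1 fell in WT, where 12.6% and 9.99% of all genes did, and 3 rose and none fell in KO, where 15.1% and 13.0% did.

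Malt1 had the largest LPS response of the 10. It was read at 3431, 3118 and 3363 normalized counts in WT replicates 1 to 3 and at 19798, 15182 and 12846 in WTL. In KO it was at 2391, 2442 and 2301, and in KOL at 10889, 15445 and 10782. Every stimulated library was far above every unstimulated one, and KOL replicate 2 lay within the WTL range. Malt1 was 4.82-fold higher in WTL than in WT (log2 fold change 2.27, SE 0.16, edgeR adjusted p = 1.27e-08) and 5.20-fold higher in KOL than in KO (2.38, SE 0.16, edgeR adjusted p = 6.88e-09). Its partner Bcl10, an adaptor that forms filaments with MALT1, was at 1339, 1261 and 1144 in WT, 1548, 1605 and 1712 in WTL, 1146, 1205 and 1122 in KO, and 1484, 1175 and 1449 in KOL. WTL lay above WT throughout, while KOL replicate 2 lay within the KO range. The log2 fold change of Bcl10 was 0.38 (SE 0.09, edgeR adjusted p = 0.00262) in WT and 0.24 (SE 0.09, edgeR adjusted p = 0.0309) in KO on the TMM scale, but its TPM went the other way (-0.16 and -0.24 on the log2(TPM + 1) scale, limma adjusted p = 0.207 and 0.0690). The WT call was lost without WT replicate 3 (edgeR adjusted p = 0.0614), and the KO call without KO replicate 1 or 3 or KOL replicate 1 or 3 (edgeR adjusted p = 0.0849 to 0.131) and on TPM scaled to a common median (limma adjusted p = 0.0591).

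Map3k8, which encodes TPL2, rose from 589, 534 and 598 normalized counts in WT to 1678, 1596 and 1667 in WTL, and from 408, 437 and 382 in KO to 1126, 1403 and 1247 in KOL. None of the 4 groups overlapped another. The rise was 2.87-fold in WT (log2 fold change 1.52, SE 0.09, edgeR adjusted p = 1.81e-09) and 3.08-fold in KO (1.62, SE 0.09, edgeR adjusted p = 1.04e-09). Tab2 was at 1599, 1472 and 1471 in WT, 4305, 3859.6 and 3715 in WTL, 1510.0, 1458 and 1353 in KO, and 3300.2, 3149.7 and 3228 in KOL. Its unstimulated groups overlapped and its stimulated groups did not. It rose 2.62-fold in WT (log2 fold change 1.39, SE 0.07, edgeR adjusted p = 8.81e-10) and 2.24-fold in KO (1.16, SE 0.07, edgeR adjusted p = 5.34e-09). Map3k7, the kinase that TAB2 serves, did not follow it. Its levels were 977, 974 and 917 in WT, 1104, 944 and 898 in WTL, 912, 891 and 886 in KO, and 719, 766 and 758 in KOL. WT and WTL overlapped, and all KOL libraries were below all others. In KO, Map3k7 fell by 0.26 on the log2 scale (SE 0.08, edgeR adjusted p = 0.00914), but on TPM scaled to a common median its change was -0.17 and did not pass (limma adjusted p = 0.0855). In WT its log2 fold change was 0.04 (SE 0.08, edgeR adjusted p = 0.697), which turned to -0.57 on TPM and to -0.054 without WTL replicate 1 and KOL replicate 2, and which was below 0 without any 1 of the WT replicates or WTL replicate 1.

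Of the IKK subunits, Ikbkb alone passed the test for LPS on the TMM scale with all 12 libraries. It was at 2158, 2118 and 2016 normalized counts in WT, 3515, 3799 and 3926 in WTL, 1816, 1878 and 1824 in KO, and 2925, 2965 and 2615 in KOL. The 4 groups did not overlap, in the order KO, WT, KOL, WTL. The rise was 1.79-fold in WT (log2 fold change 0.84, SE 0.07, edgeR adjusted p = 1.25e-07) and 1.54-fold in KO (0.62, SE 0.07, edgeR adjusted p = 2.37e-06). Chuk was at 1088, 968 and 1006 in WT, 1200.3, 964 and 1043 in WTL, 1089, 1085 and 1033 in KO, and 932, 928 and 997 in KOL. All neighbouring groups in the order of its means overlapped, whereas KO and KOL, which are not neighbours in that order, did not. Its log2 fold changes after LPS were 0.07 in WT (95% interval -0.11 to 0.24) and -0.17 in KO (-0.35 to 0.01). The value in WT was -0.53 on TPM (limma adjusted p = 0.000772). It turned just below 0 without WT replicate 2 or 3 or WTL replicate 1 (-0.047, -0.019 and -0.025). The value in KO passed the test without WTL replicate 1 (edgeR adjusted p = 0.0392). It also passed on TPM, at -0.69 (limma adjusted p = 0.000106), and at -0.23 when scaled to a common median (limma adjusted p = 0.0333). For Ikbkg the changes were 0.10 (95% interval -0.09 to 0.29) in WT and -0.08 (-0.27 to 0.11) in KO, neither past the test, with -0.32 in WT on TPM. Without WTL replicate 1 and KOL replicate 2, Ikbkg was lower in KOL than in KO (log2 fold change -0.18, edgeR adjusted p = 0.0112).

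Tbk1 was at 1306, 1318 and 1314 normalized counts in WT, 2607, 2139 and 2059.5 in WTL, 1194, 1178 and 1136 in KO, and 1797, 2016 and 1869 in KOL. The 4 groups were apart from each other, with WTL replicate 1 highest. The rise after LPS was 1.73-fold in WT (log2 fold change 0.79, SE 0.09, edgeR adjusted p = 1.94e-06) and 1.62-fold in KO (0.70, SE 0.09, edgeR adjusted p = 6.01e-06). On TPM the rises were smaller, at 0.22 and 0.12 (log2), and did not pass (limma adjusted p = 0.118 and 0.376).

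**Figure D2:**
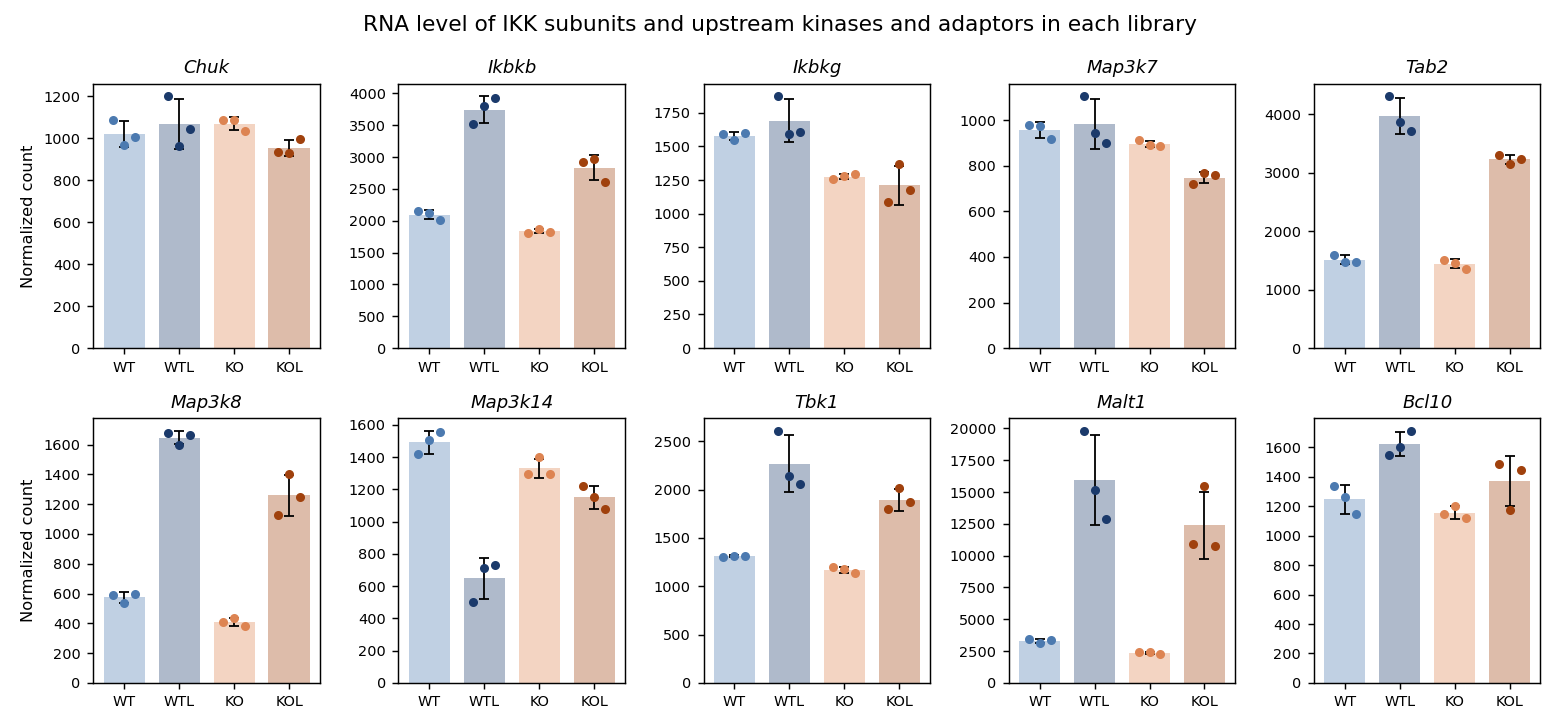
Normalized counts of the 10 genes in every library. Points are libraries in the order of replicates 1 to 3, bars are means, error bars are SDs over 3 libraries, and all axes start at 0. Malt1, Map3k8, Tab2, Ikbkb and Tbk1 are higher in all stimulated libraries than in all unstimulated ones, and Map3k14 is lowest in WTL.

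Map3k14, which encodes NIK, departed from the other 9 genes. It was read at 1416, 1503 and 1555 normalized counts in WT and at 502, 715 and 730.5 in WTL, while KO had 1293, 1399.8 and 1294 and KOL 1219, 1152 and 1077. The groups were all apart, in the order WTL, KOL, KO, WT, with WTL replicate 1 the lowest library. After LPS, WT BMDCs kept 43.6% of the Map3k14 level (log2 fold change -1.20, SE 0.11, edgeR adjusted p = 5.02e-07) and KO BMDCs kept 86.5% (-0.21, SE 0.11, 95% interval -0.45 to 0.03, edgeR adjusted p = 0.111). The LPS response differed between genotypes by 0.99 on the log2 scale (SE 0.16, edgeR adjusted p = 0.000776). This was the only call among the 10 for the interaction, which sets the response of KO BMDCs against that of WT BMDCs and was called for 17.4% of all genes, higher in 8.7% and lower in 8.75%. Leaving out any 1 library gave an interaction of 0.84 to 1.10, past the threshold each time, and leaving out both libraries that stood apart gave 0.83 (edgeR adjusted p = 4.64e-06). The fall in KO itself passed without WTL replicate 1 (edgeR adjusted p = 0.0136) and without WTL replicate 1 and KOL replicate 2 together (-0.21, edgeR adjusted p = 0.00996). It also passed in a fit of the 6 KO and KOL libraries alone (edgeR adjusted p = 0.0324), and on TPM (-0.62, limma adjusted p = 0.00129), where the interaction was 1.08 (limma adjusted p = 0.00379). Map3k14 RNA thus fell in WT by clearly more than in KO on both scales, and whether it fell in KO depended on the scale and the libraries used.

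No difference in LPS response passed the test for the other 9 genes. Their interaction estimates ran from -0.30 for Map3k7 (SE 0.11, edgeR adjusted p = 0.0814) to 0.11 for Malt1 (SE 0.21, 95% interval -0.34 to 0.56, edgeR adjusted p = 0.777), and the width of the Malt1 interval does not show that its response was alike. For Map3k8 the estimate was 0.10, with a 95% interval from -0.16 to 0.37. Map3k7 passed without WTL replicate 3 (-0.36, edgeR adjusted p = 0.0374), and Ikbkb passed without WTL replicate 1 and KOL replicate 2 together (-0.29, edgeR adjusted p = 0.00988).

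**Figure D3:**
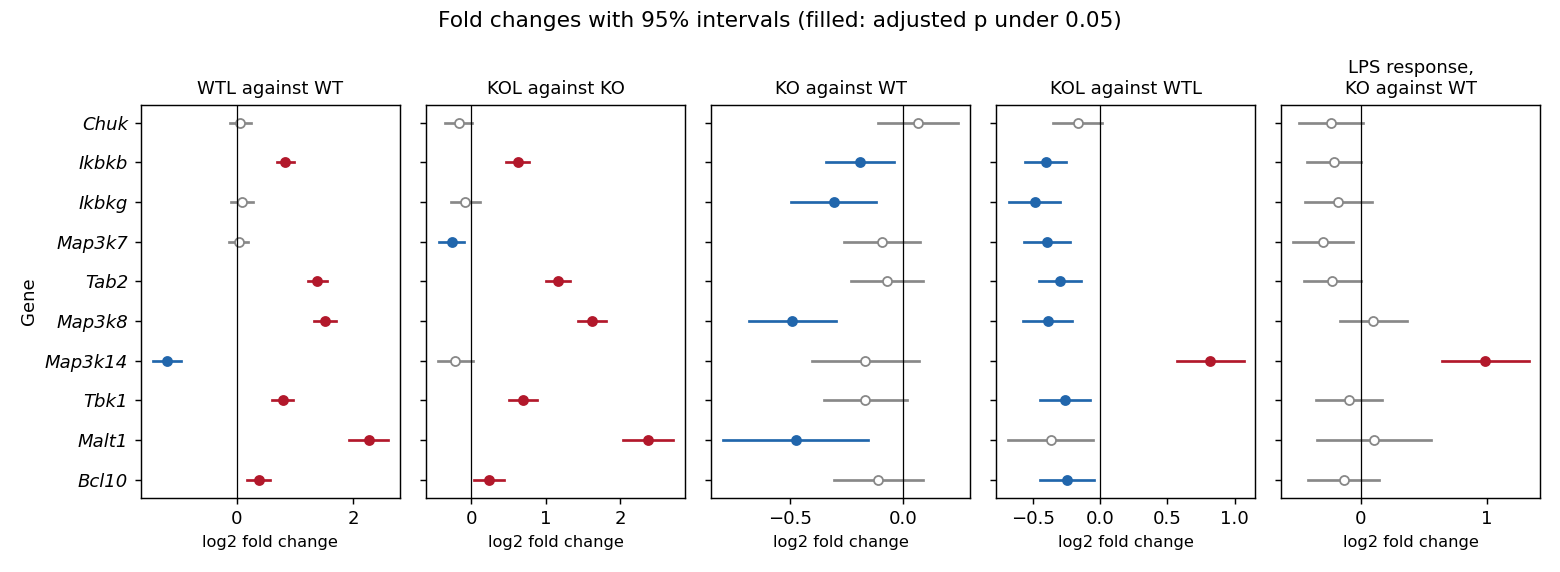
Log2 fold change of each gene, with its 95% interval, in the 4 comparisons and for the difference in LPS response (far right). Filled points have an edgeR adjusted p under 0.05, red higher and blue lower, and each panel has its own axis range. Map3k14 is the filled point in the panel of LPS response differences, at 0.99.

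In unstimulated BMDCs, CTCF depletion went with lower RNA of 4 of the 10 genes and higher RNA of none. Map3k8 and Malt1 fell to 71.3% and 72.0% of their WT levels, Ikbkg to 80.9% and Ikbkb to 87.7%. Over all genes 44.6% were called, 22.2% higher and 22.4% lower, so 4 of 10 is near the share of genes called in either direction. The median log2 fold change of the 10 was -0.17, beside -0.01 over all genes. With the study's cutoff of 1.3-fold, 2 of the 10 fell and none rose, where 17.2% and 17.3% of all genes did. The 3 libraries of each group did not overlap for 7 of the 10 genes, as for 64.2% of all genes. KO against WT shares the WT libraries with the LPS response in WT and the KO libraries with that in KO.

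For Map3k8 all KO libraries (382 to 437 normalized counts) were below all WT libraries (534 to 598), and its log2 fold change was -0.49 (SE 0.09, edgeR adjusted p = 0.000477). For Malt1, at 2301 to 2442 in KO and 3118 to 3431 in WT, it was -0.47 (SE 0.15, edgeR adjusted p = 0.0191). Malt1 is also in a list of genes that the study drew up on these samples, so its direction here is not independent of that list. The Malt1 call was lost without KO replicate 1 or 3 (edgeR adjusted p = 0.0523 and 0.0656) and in each of the 4 fits on TPM (-0.39 to -0.54, limma adjusted p = 0.0981 to 0.217). Ikbkg stood at 1255 to 1291 in KO and 1546 to 1596 in WT, also without overlap, a log2 fold change of -0.31 (SE 0.09, edgeR adjusted p = 0.0112). That call was lost on TPM without a filter or scaled to a common median (limma adjusted p = 0.0850 and 0.119). Ikbkg is X-linked, and Xist, the RNA that silences an X chromosome, was at 24501 to 25378 in KO and 15371 to 16454 in WT, with 4 Y-linked genes at no more than 3 counts in every library. After LPS, the summed level of Xist and these Y-linked genes overlapped between genotypes (12450 to 23693 in KOL, 12476 to 20442 in WTL). Ikbkg was lower in KOL than in WTL, by a log2 fold change of -0.48. The part of Xist in either Ikbkg difference was not tested. In KO against WT, Ikbkb was the smallest of the calls, at -0.19 (SE 0.07, edgeR adjusted p = 0.0413). That call was lost without KO replicate 1, 2 or 3, without WT replicate 1 or 2, and without WTL replicate 2 (edgeR adjusted p = 0.0550 to 0.122). It was also lost without a filter and with the replicate number as a block (edgeR adjusted p = 0.141 and 0.0599), and on TPM scaled to a common median (limma adjusted p = 0.0818).

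The remaining 6 genes did not pass. For Tbk1 and Map3k14 the log2 fold change was -0.17 each (95% intervals -0.35 to 0.02 and -0.40 to 0.07), with no overlap between KO and WT libraries. Both were called in a fit of the 6 KO and WT libraries alone (edgeR adjusted p = 0.00212 and 0.00444), both also without WTL replicate 1 and KOL replicate 2 (edgeR adjusted p = 0.00782 and 0.0228), and Tbk1 without WTL replicate 1 alone (edgeR adjusted p = 0.0371). For Map3k7, Bcl10, Tab2 and Chuk the values were -0.09, -0.11, -0.07 and 0.07, each with an interval that spans 0. The value for Chuk was at -0.0050 without WT replicate 2.

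In KOL, 7 of the 10 genes were lower than in WTL, at 71.6% of the WTL level for Ikbkg, 75.7% for Ikbkb, 76.2% for Map3k7, 76.4% for Map3k8, 81.5% for Tab2, 83.5% for Tbk1 and 84.4% for Bcl10. Map3k14 was the exception, 1.77-fold higher in KOL than in WTL. Over all genes 44.7% were called, 21.4% higher and 23.3% lower. The median of the 10 was -0.33 on the log2 scale, beside -0.03 over all genes. The groups did not overlap for 8 of the 10, against 46.3% of all genes. All these differences were modest: with the study's cutoff of 1.5-fold, Map3k14 remained and none of the lower genes did, where 12.5% of all genes were lower and 12.5% higher by that rule.

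All 3 IKK subunits had negative values in KOL against WTL, and 2 passed. Ikbkg (1087 to 1370.1 normalized counts in KOL, 1591 to 1873 in WTL) had a log2 fold change of -0.48 (SE 0.09, edgeR adjusted p = 0.000487), and Ikbkb one of -0.40 (SE 0.07, edgeR adjusted p = 0.000313). For Chuk it was -0.17 (95% interval -0.35 to 0.02), which passed without WTL replicate 2 (edgeR adjusted p = 0.0450). Both TAK1 complex genes fell. Map3k7 changed by -0.39 (SE 0.08, edgeR adjusted p = 0.00102) and Tab2 by -0.30 (SE 0.07, edgeR adjusted p = 0.0045). The Map3k7 call was lost on TPM (-0.22, limma adjusted p = 0.0887, and -0.15 with 0.161 when scaled to a common median), and that of Tab2 in a fit of the 6 stimulated libraries alone (edgeR adjusted p = 0.0590).

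Map3k8 was lower by a log2 fold change of -0.39 (SE 0.08, edgeR adjusted p = 0.00188), with KOL replicate 2 highest of its group at 1403 and still below the lowest WTL library at 1596. Map3k14, at 1077 to 1219 in KOL and 502 to 730.5 in WTL, was higher by 0.82 (SE 0.11, edgeR adjusted p = 4.50e-05) and passed under every alternative. Tbk1 and Bcl10 were close to the threshold, at -0.26 (SE 0.09, edgeR adjusted p = 0.0229) and -0.24 (SE 0.09, edgeR adjusted p = 0.0439). Tbk1 was lost without WTL replicate 1, KOL replicate 1 or 3, or any 1 WT replicate (edgeR adjusted p = 0.0604 to 0.0959). It was also lost in the fit of the 6 stimulated libraries (edgeR adjusted p = 0.156) and on TPM without a filter or scaled to a common median (limma adjusted p = 0.0884 and 0.0669). Bcl10 was lost in 9 of the 12 fits with 1 library left out, namely without any 1 WT or KO replicate, WTL replicate 2 or 3, or KOL replicate 2 (edgeR adjusted p = 0.0591 to 0.145). The fit of the 6 stimulated libraries gave an edgeR adjusted p of 0.187, and no fit on TPM called it (limma adjusted p = 0.0583 to 0.115). Without WTL replicate 1 and KOL replicate 2 together, Bcl10 was at -0.18 and did not pass (edgeR adjusted p = 0.0527). Malt1 was at -0.37 (SE 0.15, 95% interval -0.68 to -0.05, edgeR adjusted p = 0.0589), with KOL replicate 2 (15445) and WTL replicate 3 (12846) crossing. It passed without KOL replicate 2 (edgeR adjusted p = 0.00228), without WTL replicate 3 (0.0127), and without WTL replicate 1 and KOL replicate 2 together (-0.37, edgeR adjusted p = 0.000184).

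The other genes of the pathway were taken as a list of 46, of which 45 were tested. LPS upregulated 27 and downregulated 10 in WT and the same numbers in KO. KO was higher than WT in 8 and lower in 13, and KOL was higher than WTL in 7 and lower in 17. Over all genes, 30.0% were called higher and 30.2% lower for LPS in WT, and 33.6% and 33.9% for LPS in KO. The shares were 22.2% and 22.4% in KO against WT, and 21.4% and 23.3% in KOL against WTL. The list's share called in KO against WT was thus near that of all genes. The list's median log2 fold changes were 0.48 and 0.70 for LPS in WT and KO, and for the difference between genotypes -0.07 without LPS and -0.06 with it, beside -0.02, -0.02, -0.01 and -0.03 over all genes. Ripk2, the kinase downstream of NOD receptors, Tnfaip3, which encodes the NF-kB inhibitor A20, and Nfkbia, which encodes IκBα, rose most, by 2.87, 2.47 and 2.45 (log2) in WT and by 3.22, 2.59 and 2.21 in KO. Card9, a scaffold for BCL10 and MALT1, fell by 1.11 in WT and by 0.99 in KO, the opposite direction to Malt1 and Bcl10 on the TMM scale. Map3k3 fell by 1.01 and by 1.21.

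Among the binding partners of the 10, Tab1 differed most with genotype. TAB1 is the subunit that activates TAK1. Tab1 was at 247, 272 and 278 normalized counts in WT, 97.1, 148 and 168 in WTL, 47.6, 47.0 and 53.7 in KO, and 60.2, 39.8 and 50.2 in KOL. Every CTCF-deficient library was below every WT and WTL library, and KO and KOL overlapped. The log2 fold change was -2.42 in KO against WT (SE 0.18, edgeR adjusted p = 7.04e-08) and -1.47 in KOL against WTL (SE 0.20, edgeR adjusted p = 2.79e-05), while Map3k7 and Tab2 themselves did not pass in KO against WT. Tab3, a homologue of Tab2, was at 188 to 221 in KO and 277 to 291 in WT (log2 fold change -0.47, SE 0.12, edgeR adjusted p = 0.00451), and its KOL and WTL libraries overlapped. The call in KO was lost in every fit on TPM (-0.19 to -0.38, limma adjusted p = 0.141 to 0.405).

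Ikbke, the kinase nearest to Tbk1, was at 2155 to 2284 normalized counts in WT, 6831 to 7415 in WTL, 3146 to 3215 in KO and 5069 to 6275 in KOL. It was above WT in every KO library and below WTL in every KOL library, whereas Tbk1 was lower in both. Its log2 fold change was 0.53 in KO against WT (SE 0.08, edgeR adjusted p = 6.78e-05) and -0.36 in KOL against WTL (SE 0.08, edgeR adjusted p = 0.00145). Tank, an adaptor of TBK1, fell in KO (-0.38, SE 0.13, edgeR adjusted p = 0.0309) and in KOL (-0.42, SE 0.13, edgeR adjusted p = 0.0184), but the first call was lost without WT replicate 1 or 3 or any 1 KO replicate (edgeR adjusted p up to 0.0847) and the second without WTL replicate 1 or KOL replicate 1 or 3 (up to 0.0806). The second was also lost in the fit of the 6 stimulated libraries (edgeR adjusted p = 0.104) and in every fit on TPM (limma adjusted p = 0.0560 to 0.117), and the first on TPM without a filter or scaled to a common median (limma adjusted p = 0.0700 and 0.0907).

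TPL2 is held in a complex with p105, the product of Nfkb1, and ABIN-2, the product of Tnip2. Tnip2 was higher in every CTCF-deficient library, at 845 to 853 in KO and 582 to 606 in WT (log2 fold change 0.51, SE 0.07, edgeR adjusted p = 2.57e-05), where Map3k8 was lower. Nfkb1 stood at 4182 to 4316 in KO and 4392 to 4593 in WT, which did not pass (-0.08, edgeR adjusted p = 0.303), and at 11850.0 to 13287 in KOL and 13864 to 14436 in WTL, which did (-0.19, SE 0.06, edgeR adjusted p = 0.0243), though not without any 1 WT replicate, WTL replicate 2, or KOL replicate 1 or 3 (edgeR adjusted p up to 0.0904), without a filter (0.166) or in the fit of the 6 stimulated libraries (0.232). On TPM scaled to a common median it did not pass either (limma adjusted p = 0.0623).

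NIK protein is kept low by TRAF3, TRAF2 and the ubiquitin ligases encoded by Birc2 and Birc3. Birc3 was at 2179.6 to 2245 normalized counts in WT, 4249.6 to 4409 in WTL, 1892 to 1957 in KO and 2783 to 3090.0 in KOL. It rose after LPS in both genotypes on the TMM scale, while on TPM its changes were 0.24 in WT and -0.17 in KO and did not pass (limma adjusted p = 0.0759 and 0.196). Its difference in KOL against WTL was -0.59 (SE 0.06, edgeR adjusted p = 3.10e-06), where that of Map3k14 was 0.82. Traf2 was also lower there (-0.33, SE 0.08, edgeR adjusted p = 0.00363), whereas Birc2 did not pass (-0.11, edgeR adjusted p = 0.189). The LPS response of Birc2 was higher in KO than in WT by 0.38 (log2, SE 0.10, edgeR adjusted p = 0.0150), while that of Birc3 was lower. That Birc2 call was lost with 1 library left out (edgeR adjusted p up to 0.0555). A link to Map3k14 was not tested. Traf3 was at 969.5 to 1206 in KOL and 1041 to 1098 in WTL, with no difference past the test (edgeR adjusted p = 0.841). In KO against WT, Traf3 was higher (log2 fold change 0.22, SE 0.08, edgeR adjusted p = 0.0378). That call was lost without any 1 WT or KO replicate (edgeR adjusted p up to 0.191), without a filter (edgeR adjusted p = 0.0838) and on unscaled TPM (0.16, limma adjusted p = 0.273). The other 3 regulators were lower in KO, Birc2 by -0.49, Birc3 by -0.20 and Traf2 by -0.21 (edgeR adjusted p = 4.23e-05, 0.0198 and 0.0434). With 1 library left out, the highest edgeR adjusted p was 0.000614 for Birc2, 0.0773 for Birc3 and 0.164 for Traf2.

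**Figure D4:**
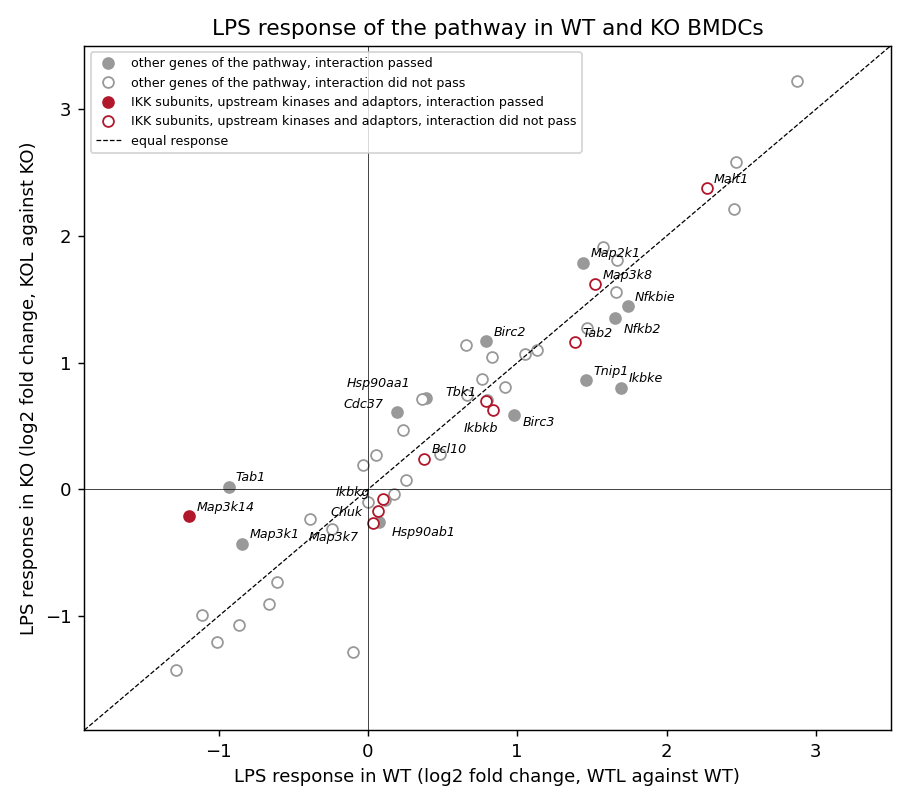
Log2 fold change after LPS in WT (horizontal) and in KO (vertical) for the 10 genes (red) and the other tested genes of the pathway (grey). Filled points passed the test of the difference in response, the dashed line marks equal responses, and Map3k14 lies above it at -1.20 in WT and -0.21 in KO.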

How the data were processed

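RNA-seq of 12 BMDC libraries (WT, WTL, KO and KOL, 3 replicates each, assigned by their labels) was analysed from gene tables deposited for each library. Reads were paired-end, 100 bases long. Ribosomal RNA depletion is named in the labels, and a stranded poly(A) kit in the methods of the paper. The authors used Trim Galore for trimming, STAR (2.5.1 per the submitters' processing notes) for alignment to mm10, and RSEM to quantify 55335 genes. The authors deposited RSEM expected counts, which are estimated counts that divide reads fitting several genes and need not be whole. They also deposited TPM values, which correct for transcript length and keep no depth.

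Expected counts were rounded, scaled by TMM and filtered by group with filterByExpr, which left 14008 genes. The quasi-likelihood test of edgeR 4.0.16 (R 4.3.3) was applied in 1 fit of all 12 libraries without covariates, for the effect of LPS in each genotype, the effect of genotype with and without LPS, and the interaction. Benjamini-Hochberg adjusted p-values, over all genes, were called under 0.05. The fold cutoffs of 2, 1.3 and 1.5 are the study's. Errors are SDs over 3 libraries or SEs of the fit. Replicates are described as biological, but nothing ties them to separate animals, so p-values measure the spread between these libraries. That spread was estimated for each gene over all 12 together and not for each group.

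The 10 genes, the pathway list and the marker lists were chosen with earlier results of these data known. Besides the 10 genes and Ctcf, the genes named were the binding partners Tab1, Tab3, Ikbke, Tank, Nfkb1, Tnip2, Card9 and Traf3, and for each comparison up to 3 pathway genes with the largest rise or fall among those called with at least 100 normalized counts on average. Traf2 and Birc2 were added as the other listed regulators of NIK. Alternatives were DESeq2 1.42.0, edgeR with the size factors of DESeq2, all genes unfiltered, a minimum of 10 counts in each library, a replicate block, limma 3.58.1 on log2(TPM + 1) or log2(TPM + 0.1) filtered at 1 TPM in 3 libraries or not filtered, the 6 libraries of a comparison alone, the fold cutoffs, and leaving out each library. TPM scaled to a common median and leaving out WTL replicate 1 with KOL replicate 2 were added after seeing the data. Promoters came from RefSeq (GRCm38.p6). Tested on simulated counts with 200 changed genes, edgeR recovered 144 and called 11 unchanged genes of 13618 genes in KO against WT, and recovered 102 and called 8 unchanged of 13626 for the interaction.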

Additional observations from a re-analysis of the deposited data

Results flagged for a closer look

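The LPS response differed between WT and CTCF-deficient BMDCs, by the interaction term of edgeR (quasi-likelihood, Benjamini-Hochberg adjusted p), for Map3k14 among the 10 genes and for genes of the pathway list, of which 6 are given below. In all, 12 of the 45 tested genes of that list passed, 6 with a higher and 6 with a lower response in KO, where 17.4% of all genes did (8.7% higher and 8.75% lower). The Map3k14 response was higher in KO by 0.99 (log2, SE 0.16, edgeR adjusted p = 0.000776), since it fell in WT by 1.20 and in KO by 0.21.

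Tab1 differed by 0.96 (SE 0.27, edgeR adjusted p = 0.0261). It fell in WT by 0.93, and in KO, where it started at 47.0 to 53.7 normalized counts, its change was 0.02. Map3k1 differed by 0.41 (SE 0.10, edgeR adjusted p = 0.0119), having fallen by 0.84 in WT and by 0.43 in KO. Cdc37, which encodes a kinase chaperone of IKK, differed by 0.41 (SE 0.11, edgeR adjusted p = 0.0188), with rises of 0.20 in WT and 0.61 in KO on the TMM scale. On TPM the value of Cdc37 in WT turned to -0.35 (limma adjusted p = 0.00494) and the one in KO was 0.19 (limma adjusted p = 0.0810).

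The response was smaller in KO for Ikbke, by -0.89 (SE 0.11, edgeR adjusted p = 8.69e-05), with rises of 1.70 in WT and 0.80 in KO, the second of which was 0.14 on TPM and did not pass (limma adjusted p = 0.349). For Tnip1, whose product ABIN-1 works with A20, the difference was -0.60 (SE 0.10, edgeR adjusted p = 0.000776), and for Birc3 it was -0.39 (SE 0.09, edgeR adjusted p = 0.00743). With 1 library left out, the highest edgeR adjusted p was 0.0903 for Tab1 (the call was lost without KO replicate 1 or 2 or KOL replicate 1 or 3), 0.0583 for Birc3 (without WT replicate 2) and 0.0509 for Cdc37 (without KO replicate 1 or 2), and those of Ikbke, Tnip1, Map3k1 and Map3k14 stayed under the threshold (at most 0.0425). On TPM, however, the calls of Map3k1 (limma adjusted p = 0.140 to 0.225 over 4 fits) and Birc3 (0.123 to 0.208 over the 3 unscaled fits) were lost, as was that of Tab1 with a pseudocount of 0.1 (0.0544).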

How the results depend on the processing

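Map3k14 was called in WTL against WT, in KOL against WTL and for the interaction under every alternative run, and Map3k8, Malt1, Tab2 and Ikbkb rose after LPS in both genotypes under all of them, except that Ikbkb did not reach the cutoff of 2-fold. The study's fold cutoffs left 4 of the 7 calls for LPS in WT, 3 of 7 for LPS in KO, 2 of 4 for KO against WT and 1 of 8 for KOL against WTL. In KO against WT, limma on TPM without a filter called 2, and on TPM scaled to a common median 1. In KOL against WTL, those settings and the fit of 6 libraries each called 5. Without WTL replicate 1 and KOL replicate 2, the interaction was called for 2. With 1 library left out, 6 to 7 of the 10 were called for LPS in WT, 2 to 5 in KO against WT, 6 to 8 in KOL against WTL, 6 to 9 for LPS in KO and 1 to 2 for the interaction.

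Over all genes, the fold cutoffs left 12.6% higher and 9.99% lower for LPS in WT, and 15.1% and 13.0% for LPS in KO. In KOL against WTL they left 12.5% in each direction. Of the pathway list, the cutoffs left 17 genes for LPS in WT, 18 for LPS in KO and 6 in KOL against WTL. In KOL against WTL, limma called 15 with either pseudocount or no filter and 14 on scaled TPM, and the fit of 6 libraries called 14. For the interaction limma called 6 with a pseudocount of 1, filtered or not, and 5 with 0.1, and 22 passed without WTL replicate 1 and KOL replicate 2. With 1 library left out, the counts were 34 to 37, 16 to 26, 18 to 25, 36 to 40 and 6 to 18, in the same order of comparisons.

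Directions turned in 31 of 1140 values of the 10 genes, 6 of them for a called value, all Bcl10. On TPM (pseudocount 1, pseudocount 0.1, no filter), LPS values in WT were -0.53, -0.54 and -0.53 for Chuk, -0.32, -0.33 and -0.32 for Ikbkg, -0.57, -0.60 and -0.57 for Map3k7 and -0.16 in each for Bcl10, which was at -0.24 in each in KO. On scaled TPM, Map3k7 was at -0.052 for LPS in WT, Ikbkg at 0.032 for LPS in KO and Malt1 at -0.013 for the interaction. Without WTL replicate 1 and KOL replicate 2, LPS in WT gave -0.023 for Chuk and -0.054 for Map3k7. With 1 library left out, the lowest and highest values were -0.047 and 0.14 for Chuk, and -0.067 and 0.095 for Map3k7, for LPS in WT, -0.0050 and 0.092 for Chuk in KO against WT, and -0.16 and 0.019 for Tbk1 and -0.083 and 0.30 for Malt1 for the interaction. TPM fixes each library's sum, and the cause of the other changes was not tested. After LPS in WT, limma on TPM called 1710 genes higher and 7544 lower, where edgeR called 4209 and 4224.

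Replicate numbers are shared between groups, and they are used here as names of libraries only. Same-numbered libraries deviated together in 3 of 18 pairs (correlation above 0.1) and differently numbered ones in 8 of 36. This count cannot exclude pairing, since deviations from a mean of 3 libraries offset each other. Among the strongest correlations were 0.66 for WTL replicate 1 with KOL replicate 2, 0.62 for WTL replicate 3 with KOL replicate 1, and -0.65 for WTL replicate 1 with KOL replicate 1. With the replicate number as a block, Ikbkb in KO against WT (edgeR adjusted p = 0.0599) and Bcl10 in KOL against WTL (0.0615) were not called, and the Map3k14 interaction was 1.00 (edgeR adjusted p = 0.00179). BMDCs after LPS varied more between replicates than unstimulated ones (biological coefficient of variation 13.7% in WTL and 14.4% in KOL, 4.92% in WT and 2.62% in KO), which limits what 3 libraries can show for differences near 1.2-fold. A spread shared by all groups can make p-values too small between stimulated groups and too large between unstimulated ones. For Tbk1, the edgeR adjusted p in KO against WT was 0.134 with 12 libraries and 0.00212 with 6. In KOL against WTL it was 0.0229 and 0.156.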

Other observations

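Over 9338 genes, the levels most like that of Malt1 across the 12 libraries were those of Parp14, Ifi203 and Ankib1 (Pearson r = 0.998, 0.997 and 0.997). For Map3k8 they were those of Gm49342, Lrch3 and Cflar (each r = 0.996), and for Tab2 those of Sbds, Fnbp1l and Slfn2 (r = 0.995, 0.994 and 0.994). These 12 points fall into 4 groups and share libraries, depth and the split by LPS, so the values describe likeness only.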
